A study of Homo sapiens with 6 samples.

Results

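The genes of the proteasome were followed in SH-SY5Y cells, an established human neuroblastoma line, when the telomere protein TRF2 was inhibited. Genes were taken by symbol, as every spot annotated with PSMA, PSMB, PSMC, PSMD, PSME, PSMF or PSMG followed by a digit. This gave 37 symbols on 68 spots, out of 6255 named genes tested on 8451 spots. PSMC3IP, a partner of the meiotic recombination machinery, and PSME3IP1, a protein that binds PSME3, share the prefix but are not part of the proteasome. The remaining 35 genes held 66 spots, of which 65 could be tested. They comprised 5 alpha and 8 beta genes of the core, 5 ATPase and 8 non-ATPase genes of the cap, 3 activator genes and 6 assembly chaperones. Other genes of the particle, among them PSMB5, PSMB9 and PSMC5, were not analysed here.

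The 3 GFP control samples carried the vector pEGF-C2 with no insert, and the 3 DN-TRF2 samples carried pIRES2-EGFP with a dominant-negative form of TRF2. The backbone and the insert therefore differ together and cannot be told apart. All 6 samples were kept in geneticin at 500 µg/ml and collected on day 7 after transfection, from separate experiments that were run in parallel. Each sample was radiolabelled and hybridized to its own cDNA array, and median deposited intensity ran from 479.9 to 712.0 per array. The comparison asks whether RNA of the proteasome genes differs when the dominant-negative protein is present. TERF2, the gene of TRF2, was not analysed here, so the group labels could not be checked against it. In the main fit the p-values set the difference between groups against the spread between the samples within them, and leave any pairing of samples out.

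The proteasome is the protease that destroys proteins tagged with ubiquitin. Its core is a barrel of stacked rings: the outer alpha rings form the gate, and the inner beta rings carry the active sites. A cap docks on the gate. Its ATPase ring unfolds the substrate, and its non-ATPase subunits recognise the ubiquitin chain and remove it. Activator rings can dock in place of the cap, and dedicated chaperones help build the alpha ring and the ATPase ring without staying in the finished particle. Cells that lack proteasome activity are known to raise its genes together through the transcription factor NFE2L1, which binds antioxidant response elements. Interferon replaces the active beta subunits with those of the immunoproteasome.

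Elements of these 2 kinds were searched for by their letters, and stretches with a match are shown so that members of different classes can be compared. In RefSeq windows of 300 bases around the start site (GRCh38.p14), 29 of the 35 genes were found; PSMA7, PSMB1, PSMB6, PSMB7, PSMD4 and PSMG3 were not. The antioxidant response element core TGACNNNGC, searched on both strands, occurred in 11 of these genes and in 31.4% of their 35 windows, against 13.35% of all 35116 windows. Matches on the gene's own strand are shown for PSMA4 (chr15:78540644-78540684, plus strand), PSMB3 (chr17:38752621-38752661, plus), PSMD12 (chr17:67366718-67366758, minus), PSMD5 (chr9:120843032-120843072, minus) and PSMG1 (chr21:39183610-39183650, minus). PSMD3, PSMD9, PSME1 and PSME2 also had a match on their own strand, not shown here. PSMC4 and PSMG2 were the other genes with a match. Each stretch shown is written 5′ to 3′ along its gene, with the match in capitals.
PSMA4: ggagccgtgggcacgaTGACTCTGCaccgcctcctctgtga
PSMB3: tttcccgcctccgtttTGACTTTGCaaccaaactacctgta
PSMD12: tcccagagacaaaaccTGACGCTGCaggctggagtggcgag
PSMD5: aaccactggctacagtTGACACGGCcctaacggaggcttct
PSMG1: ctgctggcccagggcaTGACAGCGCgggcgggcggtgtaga

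The interferon-type element, searched as 2 copies of GAAA with any 2 bases between them on both strands and free to overlap the first motif, occurred in 6 of the 29 genes and in 17.1% of their windows, against 3.57% of all windows. These 6 included both measured immunoproteasome genes, PSMB8 and PSMB10, and the PSME1 and PSME2 genes of the interferon-induced activator; PSMA4 and PSMB4 were the others. The stretches are given for PSMB10 (chr16:67936846-67936887, minus strand), PSMB8 (chr6:32844026-32844067, minus), PSME1 (chr14:24136183-24136224, plus) and PSME2 (chr14:24146613-24146654, minus). In PSMB8 and PSME1 the match is on the other strand and reads as its reverse complement.
PSMB10: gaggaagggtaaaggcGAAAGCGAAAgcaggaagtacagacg
PSMB8: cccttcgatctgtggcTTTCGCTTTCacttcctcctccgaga
PSME1: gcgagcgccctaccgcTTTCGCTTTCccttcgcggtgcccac
PSME2: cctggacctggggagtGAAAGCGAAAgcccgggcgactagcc

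Proteasome genes differed in both directions and none passed the test. Values are log2 intensities after an offset of 50 and quantile normalization, with the spots of a gene averaged, and a difference is DN-TRF2 minus GFP control. Of the 35 genes, the mean with DN-TRF2 was higher in 19 and lower in 16, that is, higher in 54.3% against 48.0% of all genes. With median scaling in place of quantile normalization 14 of the 35 were higher, against 42.6% of all genes. Their median difference was 0.0088, against -0.0067 over all genes, and turned to -0.035 with median scaling. Single genes ran from -0.35 to 0.44. In limma's test across all genes 0 of 35 passed an adjusted p of 0.05, as did 0% of all genes, and the adjusted p of every member was 1.00. In the fit per spot 0 of 65 proteasome spots passed and 0% of all spots.

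The intervals show how large a change could have gone unseen. For all 35 genes limma's 95% interval lay within a log2 difference of 1 in either direction, that is, within a 2-fold change, as it did for 6153 of all 6255 genes. This depends on the offset: with an offset of 1 or 10 it held for 34 of the 35, the interval of PSMB2 reaching 1.11 and 1.04. It also held for 34 when each gene was represented by its brightest spot, the interval of PSMD11 reaching -1.11. It lay within 0.5 for 22 of the 35 and for 56.8% of all genes. These 22 include PSMG2, whose spot was deposited below the added offset on every array, so the width of its interval depends on the offset. The median half-width was 0.34 for the members and 0.35 for all genes. An unadjusted p under 0.05 was found for 3 of the 35 (PSMC6, PSMA3 and PSMB2), against 3.57% of all genes. It was found for 0 of 35 without GFP control 1 and for 0 without DN-TRF2 array 1. With median scaling it was found for 1 of 35, as with array weights and without DN-TRF2 array 3. On the other side of that line the next smallest was 0.0939, for PSMD10. Per spot an unadjusted p under 0.05 was found at 4 of the 65 proteasome spots (6.15%), 1 each of PSMA1, PSMB2, PSMC6 and PSME3. It was found at 3.41% of all spots, 313 in number, and at 527 with the replicate number as a block, with 0 passing after adjustment in either fit.

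**Figure D1:**
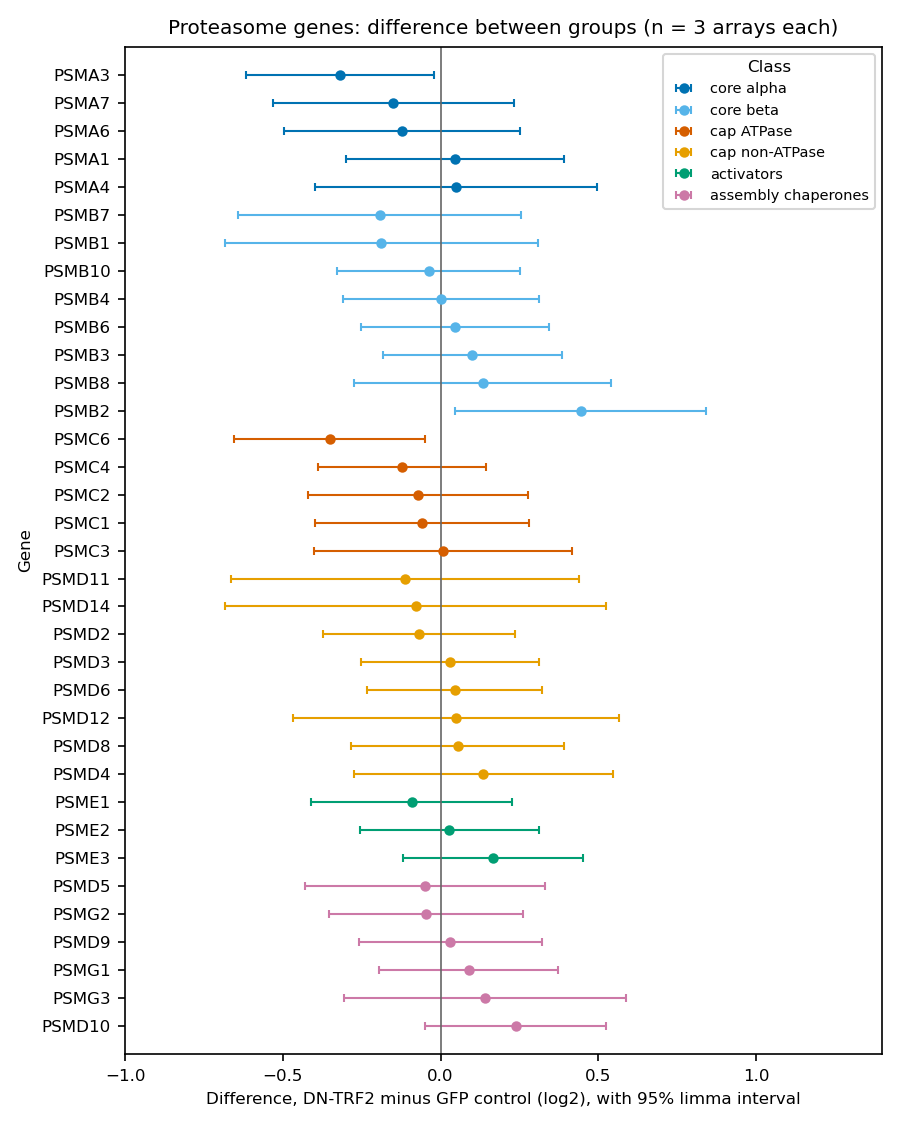
Difference between DN-TRF2 and GFP control for each of the 35 proteasome genes (points, log2) with limma's 95% interval (bars), coloured by class, n = 3 arrays per group. In this fit per gene the intervals of PSMC6, PSMA3 and PSMB2 do not reach 0 before adjustment, and every interval lies between -1 and 1. In the fit per spot that of PSMA3 reaches 0.

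Of the alpha genes of the core 2 of 5 were higher, with a median difference of -0.12 that became 0.016 with array weights. PSMA3, a gate subunit, read 8.14, 8.07 and 8.20 on GFP control arrays 1 to 3 and 7.64, 7.93 and 7.89 on DN-TRF2 arrays 1 to 3. All 3 DN-TRF2 arrays lay below all 3 controls. The difference was -0.32 ± 0.13 (SE, n = 3 per group), a fold of 0.802, with an unadjusted p of 0.0386 and a limma adjusted p of 1.00. Its 1 spot was dim, brighter than 23.1% of spots. In the fit per spot that spot had an unadjusted limma p of 0.0535, with an interval that reached 0.0059.

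PSMA7, another alpha subunit, read 9.43, 9.94 and 9.65 in controls and 9.30, 9.62 and 9.65 in DN-TRF2 cells, a difference of -0.15 ± 0.17. PSMA6 read 9.86, 10.22 and 9.75 against 9.81, 9.64 and 10.02, a difference of -0.12 ± 0.16. In both genes the groups overlapped and GFP control 2 was high. PSMA4 differed by 0.049 ± 0.20, with controls as far apart as 10.15 and 9.32 and DN-TRF2 arrays between 9.71 and 9.82.

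PSMA1, the alpha gene with most spots, differed by 0.045 ± 0.15 over 6 spots, reading 8.51, 8.97 and 8.52 in controls and 8.71, 8.70 and 8.72 in DN-TRF2 cells. The DN-TRF2 arrays were almost equal, while GFP control 2 stood above the other controls. Its spots differed among themselves: 3 were higher and 3 lower, from -0.099 to 0.40. At the highest the controls read 9.05, 8.68 and 9.08 and the DN-TRF2 arrays 9.33, 9.29 and 9.38. There GFP control 2 was the lowest array, whereas it was the highest at 4 of the other spots. The sixth spot was deposited at or under 10, the value that stands in for no signal, on 5 arrays, and without it the gene's difference was 0.049.

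Most beta genes showed little difference, with 5 of 8 higher and a median of 0.024. PSMB2, a structural subunit of the beta ring, had the largest difference of all 35 genes. It read 7.41, 7.32 and 7.94 in controls and 8.05, 7.90 and 8.05 in DN-TRF2 cells, so that GFP control 3 overlapped the DN-TRF2 arrays while the other controls lay well below. The difference was 0.44 ± 0.18, a fold of 1.36, with an unadjusted p of 0.0325 and a limma adjusted p of 1.00. It was 0.27 with array weights and 0.64 without GFP control 3, and the 1 spot was dim, brighter than 19.8% of spots.

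PSMB7, which carries the trypsin-like active site, read 8.49, 9.29 and 8.72 in controls and 8.56, 8.65 and 8.71 in DN-TRF2 cells. The difference of -0.19 ± 0.20 rested on GFP control 2 and came to 0.034 without it. PSMB1 behaved alike, with 8.51, 9.35 and 8.69 against 8.51, 8.88 and 8.60, a difference of -0.19 ± 0.22 that came to 0.061 without GFP control 2. PSMB6, which carries the caspase-like site, differed by 0.046 ± 0.13, from 8.10, 8.40 and 8.31 to 8.26, 8.27 and 8.41. PSMB3, a structural subunit, differed by 0.10 ± 0.13.

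Immunoproteasome genes gave no common direction. PSMB8, which replaces PSMB5, read 10.10, 9.39 and 9.87 in controls and 9.94, 9.89 and 9.93 in DN-TRF2 cells, a difference of 0.13 ± 0.18. GFP control 2 was the low array here, and without it the difference was -0.063. PSMB10, which replaces PSMB7, read 13.39, 13.26 and 13.20 against 13.26, 13.12 and 13.365, a difference of -0.037 ± 0.13. Of 7 listed interferon-induced partners 3 were measured and 0 passed. The peptide transporter genes TAP1 and TAP2 differed by -0.19 ± 0.15 each and IRF1, a transcription factor of the interferon response, by 0.015 ± 0.13. The IRF1 spot was among the dimmest, brighter than 0.416% of the named genes, so its value says nothing of a change in IRF1 RNA.

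PSMB4, a structural beta gene, had the most spots, 8 of 8 different clones. It differed by 0.0013 ± 0.14, with 9.90, 10.29 and 10.13 in controls and 10.04, 10.14 and 10.14 in DN-TRF2 cells. Of its spots 4 were higher and 4 lower, running from -0.15 to 0.15. Its 95% interval ran from -0.31 to 0.31.

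The ATPase genes of the cap were the class with most lower members: 4 of 5 were lower and the median was -0.071. That leaves 20% higher, in a class of only 5 genes, against 48.0% of all genes. PSMC6 read 8.25, 8.23 and 8.18 in controls and 7.85, 7.70 and 8.06 in DN-TRF2 cells. All DN-TRF2 arrays were below all controls, and the controls lay close together. The difference was -0.35 ± 0.13, a fold of 0.784, with the smallest unadjusted p of the 35 genes (0.0279) and a limma adjusted p of 1.00. The 1 spot was brighter than 24.2% of spots, so that PSMC6, PSMA3 and PSMB2 all lay in the dimmest quartile.

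PSMC4, 1 of the ATPases whose tail opens the gate, was measured at 3 spots of different clones, each of them lower, by -0.10, -0.10 and -0.16. As a gene it read 9.46, 9.45 and 9.52 in controls and 9.44, 9.31 and 9.32 in DN-TRF2 cells. The groups did not overlap, but GFP control 2 and DN-TRF2 array 1 were nearly equal, and the difference was -0.12 ± 0.12. PSMC2 read 10.14, 10.52 and 10.35 against 10.06, 10.44 and 10.28. It was lower by about the same amount at each replicate number (-0.071, -0.075 and -0.068), although the mean difference of -0.071 ± 0.15 was small beside the spread between replicates. PSMC1 and PSMC3, the other gate-opening ATPases, differed by -0.058 ± 0.15 and 0.0088 ± 0.18.

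Non-ATPase genes of the cap stayed close to 0, with 5 of 8 higher and a median of 0.038 that became -0.0054 with median scaling. PSMD4, a ubiquitin receptor, read 12.29, 11.665 and 12.22 in controls and 12.18, 12.08 and 12.325 in DN-TRF2 cells, a difference of 0.14 ± 0.18. Only GFP control 2 stood apart, and without it the difference was -0.062. PSMD2, a large scaffold that receives shuttle factors, had 3 spots, 1 higher and 2 lower, and differed by -0.069 ± 0.13, from 9.71, 9.43 and 9.65 to 9.49, 9.66 and 9.43. PSMD14, the deubiquitinase that removes the ubiquitin chain, differed by -0.079 ± 0.27 with controls at 6.78, 7.96 and 7.06 and DN-TRF2 arrays at 7.10, 7.28 and 7.20. Its controls spread most of all 35 genes (SD 0.62) while its DN-TRF2 arrays did not (SD 0.090).

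The scaffold subunits of the lid gave small differences. PSMD3 differed by 0.031 ± 0.12, with 9.62, 9.61 and 9.45 in controls and 9.57, 9.70 and 9.51 in DN-TRF2 cells. PSMD6 differed by 0.045 ± 0.12, with 8.79, 8.88 and 8.96 against 8.83, 9.01 and 8.92. Each averaged 3 tested spots that disagreed in sign, from -0.20 to 0.32 in PSMD3 and from -0.19 to 0.32 in PSMD6. PSMD8 and PSMD12 differed by 0.054 ± 0.15 and 0.048 ± 0.23. PSMD11 differed by -0.11 ± 0.24 and showed how far a single spot can stray. Its 2 spots hold the same clone, yet 1 read 9.66, 9.38 and 9.10 in controls and the other 11.47, 9.725 and 11.30, and their differences were 0.010 and -0.24.

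Of the activators PSME3, the nuclear activator ring, had the largest difference, 0.17 ± 0.13, with 10.485, 10.74 and 10.53 in controls and 10.74, 10.725 and 10.79 in DN-TRF2 cells. Its 3 spots went 0.45, 0.21 and -0.16. At the first the controls read 10.99, 10.74 and 10.76 and the DN-TRF2 arrays 11.44, 11.015 and 11.38, above all controls, with an unadjusted p of 0.0216 and a limma adjusted p of 0.999. The other spots overlapped. PSME1 and PSME2, which form the interferon-induced activator and lie 1 gene apart on chromosome 14, differed by -0.091 ± 0.14 and 0.027 ± 0.13. PSME1 read 8.91, 9.12 and 8.74 against 8.71, 8.89 and 8.90, and PSME2 11.255, 11.18 and 11.10 against 11.32, 11.20 and 11.09. The 2 spots of PSME1, of the same clone, differed by -0.087 and -0.096.

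Of the assembly chaperones 4 of 6 were higher, with a median of 0.060 that became -0.010 with median scaling. PSMD10, also known as gankyrin, a chaperone of the ATPase ring, read 9.38, 9.27 and 9.48 in controls and 9.67, 9.68 and 9.50 in DN-TRF2 cells. The DN-TRF2 arrays lay above the controls, though array 3 did so by little, and the difference was 0.24 ± 0.13 with a limma adjusted p of 1.00. PSMG3, a chaperone of the alpha ring, read 8.46, 8.74 and 8.95 against 8.47, 9.0025 and 9.09, a difference of 0.14 ± 0.20, and was higher at each replicate number. PSMG1, another such chaperone, differed by 0.089 ± 0.13 over 3 spots and read 12.27, 12.09 and 12.02 against 12.25, 12.23 and 12.17. Its partner PSMG2 differed by -0.045 ± 0.14. The PSMG2 spot was dim, deposited at 25.39 to 41.95, below the added offset on every array. Both values therefore depend on the offset, and with an offset of 1 they were -0.088 ± 0.23. PSMD9 and PSMD5, which also help build the ATPase ring, differed by 0.031 ± 0.13 and -0.049 ± 0.17. PSMD9 read 11.10, 10.89 and 11.11 in controls and 10.96, 11.11 and 11.12 in DN-TRF2 cells, and its 3 spots, all of 1 clone, differed by 0.060, 0.056 and -0.023.

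**Figure D2:**
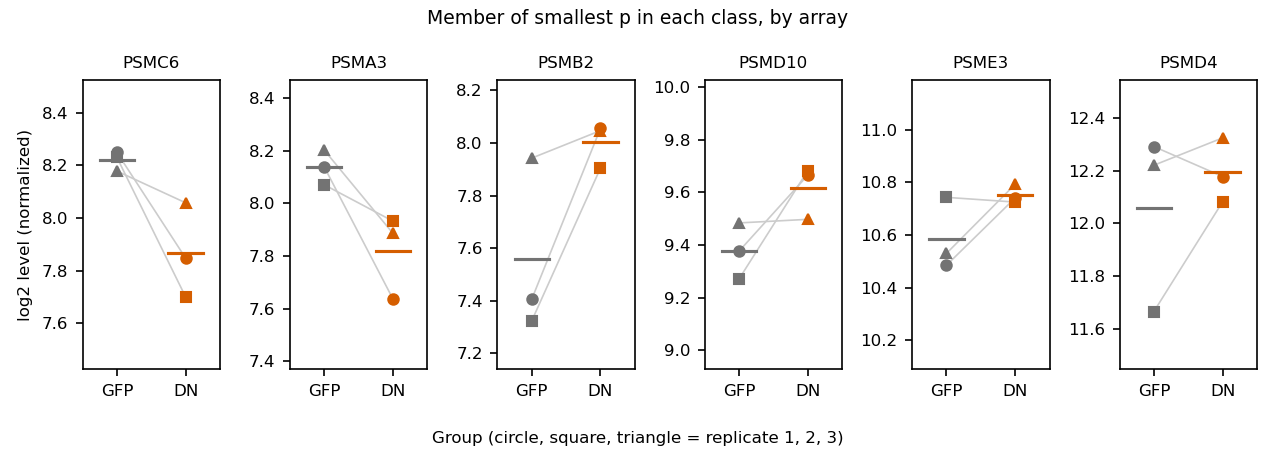
Normalized log2 level on each array for the member of smallest p in each class, with GFP control in grey, DN-TRF2 in orange and bars for group means. Lines join arrays of the same replicate number, and each panel spans 1.1 log2 units. PSMC6 and PSMA3 lay lower and PSMD10 higher on all DN-TRF2 arrays, while PSMB2, PSME3 and PSMD4 overlapped.

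Counted over all members, the groups did not overlap in 4 genes. DN-TRF2 arrays lay above the controls in 1 of 35 (PSMD10), against 4.7% of all genes, and below them in 3 (PSMA3, PSMC4 and PSMC6), against 4.25%. By replicate number, which appears to pair the samples, 4 of 35 were higher in DN-TRF2 cells at all 3 numbers (PSMB2, PSMB3, PSMD10 and PSMG3), against 11.5% of all genes. A further 5 were lower at all 3 (PSMA3, PSMB1, PSMC2, PSMC4 and PSMC6), against 15.3%. The symbols that belong to no proteasome component differed by 0.15 ± 0.19 (PSMC3IP) and 0.32 ± 0.14 (PSME3IP1).

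The classes were also read on each array as the mean of their genes, each centred on its own mean, relative to all genes. All 35 genes lay at -0.026, 0.050 and -0.011 in controls and at -0.046, -0.0067 and 0.039 in DN-TRF2 cells, so the groups overlapped. ATPase genes lay at 0.048, 0.12 and 0.012 in controls and at -0.097, -0.089 and 0.0027 in DN-TRF2 cells, with no overlap, although the third pair of arrays was nearly level. That class mean leans on PSMC6, read at 1 dim spot, which differed by -0.35, while the other ATPase genes ran from -0.12 to 0.0088. The separation is therefore not a trait shown for the class without PSMC6. Assembly chaperones lay at -0.029, -0.039 and -0.029 in controls and at -0.017, 0.057 and 0.056 in DN-TRF2 cells, again with no overlap. That separation holds for the 6 chaperones as 1 class: PSMG1, PSMG2 and PSMG3 alone overlapped between the groups, and so did PSMD5, PSMD9 and PSMD10 alone. Core alpha, core beta, non-ATPase and activator genes overlapped. No test was made of these class means.

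**Figure D3:**
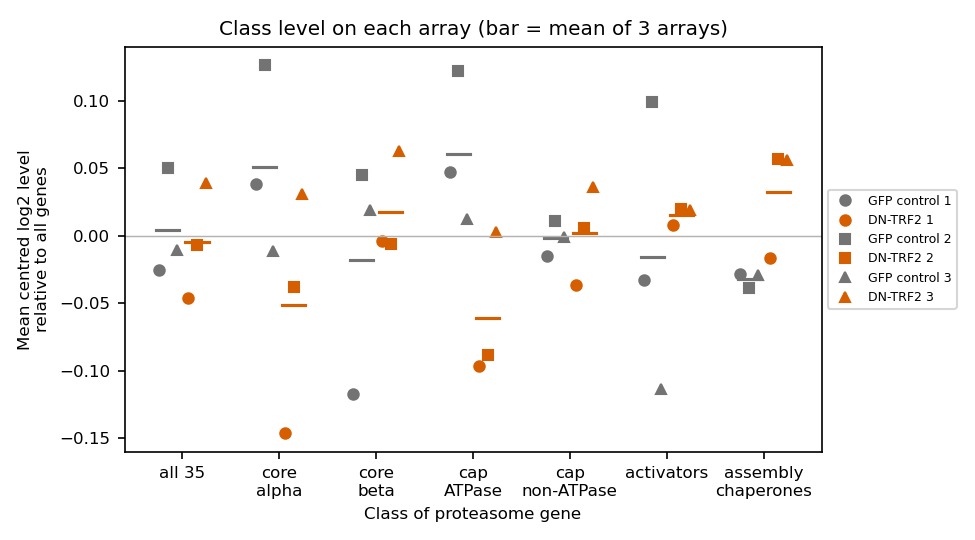
Mean centred log2 level of each class relative to all genes on the 6 arrays, with GFP control in grey, DN-TRF2 in orange, replicate numbers as circles, squares and triangles, and bars for the mean of 3 arrays. ATPase genes lie lower and the merged class of assembly chaperones higher on the DN-TRF2 arrays, although the PSMG and PSMD chaperones taken separately overlap, as do the other classes. The ATPase mean leans on PSMC6, which differed by -0.35.

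Proteasome genes varied more between the control arrays than between the DN-TRF2 arrays. The median SD of a proteasome gene was 0.19 in GFP controls and 0.10 in DN-TRF2 cells, and 26 of 35 genes had the larger SD in controls, as did 78.4% of all genes. GFP control 2 was the highest of the 6 arrays for 12 members and the lowest for 9. Over all genes it was highest for 31.7% and lowest for 26.9%. GFP control 1 was extreme almost as often, as the highest for 9 members and the lowest for 11, against 26.2% and 22.8% of all genes. PSMD14, PSMB1, PSMB7, PSMA6 and PSMA7 were high on GFP control 2, and PSMA4, PSMB8, PSMD11 and PSMD4 were low. Without GFP control 2 the sign of the difference turned in 13 of the 35 genes and without GFP control 1 in 7, but in neither case in PSMC6, PSMA3, PSMB2 or PSMD10.

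**Figure D4:**
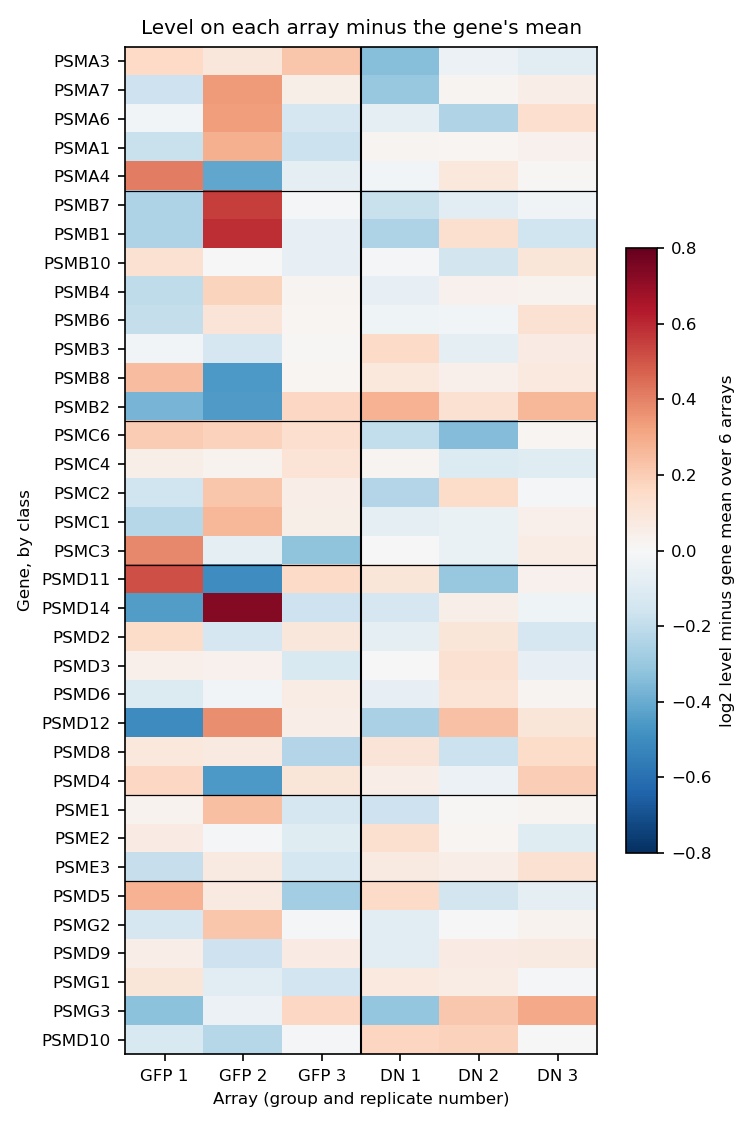
Normalized log2 level of each of the 35 genes on each array minus the gene's mean over the 6 arrays, by class (red higher, blue lower). The strongest colours lie in the GFP control columns, in GFP 1 and GFP 2, and the DN-TRF2 columns are paler.

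Where a gene had several spots, they often disagreed. Of 13 proteasome genes with at least 2 tested spots, 3 (PSMB7, PSMC4 and PSME1) had the same sign at each, or 23.1%, against 42.5% of all such genes; the members have more spots each, and among genes with exactly 2 spots it was 2 of 4 members and 48.4% of all. PSMC4 was the 1 gene with 3 or more spots whose spots all had the same sign. A further PSMD3 spot was deposited at 10 on all 6 arrays and left out.

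**Figure D5:**
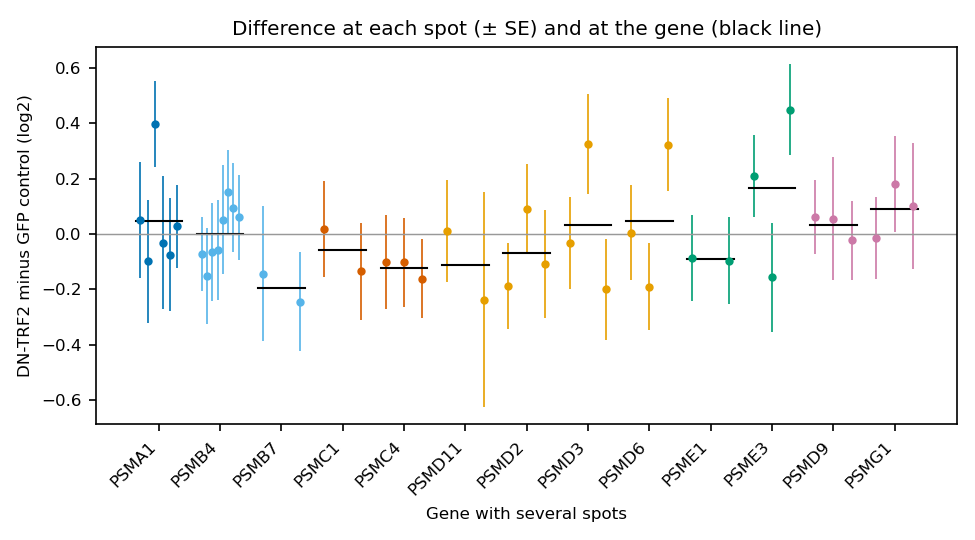
Difference between DN-TRF2 and GFP control at each spot (points, log2, with SE) of the 13 proteasome genes with at least 2 tested spots, and the gene's own value (black line). Spots of PSMC4, PSMB7 and PSME1 lie on 1 side of 0, those of the other 10 genes on both.

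Members were also described by promoter element. The 11 genes with an antioxidant response element core ran from -0.12 to 0.10 with 7 higher, and the 18 genes with a window but no match ran from -0.35 to 0.44 with 9 higher. None of PSMC6, PSMA3 and PSMB2 had a match to either motif, which says only that these letters are not in these windows. The 6 genes with the interferon-type element ran from -0.091 to 0.13, with 4 higher.

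Other genes of the pathway were measured for 31 of 48 listed. Of these 0 passed the test in either direction, as did 0% of all genes. A higher mean was found for 10 (32.3%) and a lower mean for 21, against 48.0% of all genes higher. The median difference was -0.052, against -0.0067 over all genes. All DN-TRF2 arrays lay above all controls in 1 of the 31 genes, against 4.7% of all genes, and below them in 1, against 4.25%. Among 12 proteasome-associated genes 5 (41.7%) were higher. TXNL1, a thioredoxin-like protein of the cap, read 8.28, 8.32 and 8.28 in controls and 7.94, 8.04 and 8.15 in DN-TRF2 cells, a difference of -0.25 ± 0.12 with DN-TRF2 arrays below all controls. ECPAS, a proteasome adaptor, differed by 0.34 ± 0.20 and the cap-bound enzymes UCHL5, USP14 and UBE3C by 0.23 ± 0.14, -0.21 ± 0.13 and 0.24 ± 0.13. ADRM1, a ubiquitin receptor, differed by -0.15 ± 0.14 and POMP, the chaperone of the beta ring, by 0.023 ± 0.20.

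Among 8 shuttle and p97 genes 7 were lower, by little, so that 12.5% were higher against 48.0% of all genes. The exception was RAD23B, a shuttle that carries ubiquitinated proteins to the cap, which read 8.80, 8.61 and 8.81 in controls and 9.21, 9.07 and 9.02 in DN-TRF2 cells. All DN-TRF2 arrays lay above all controls, with a difference of 0.36 ± 0.13, an unadjusted p of 0.0193 and a limma adjusted p of 1.00. VCP, the p97 segregase itself, differed by -0.13 ± 0.16. The ubiquitin gene UBB differed by 0.25 ± 0.16 and UBA1, the enzyme that activates ubiquitin, by -0.15 ± 0.12. NFE2L1 differed by -0.0042 ± 0.11 at a spot that was among the dimmest and likewise says nothing of a change, and its relative NFE2L2 by 0.061 ± 0.20.

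For the cell type, 10 of 19 listed neuroblastoma and sympathoadrenal markers were measured and 9 of them lay above the median signal. So did 3 of 5 blood and immune markers (LYZ, TYROBP and CD68) and 2 of 8 liver and epithelial markers (KRT8 and CDH1), so signal on these arrays does not by itself identify the cells. Of the 10 neuroblastoma markers 7 (70%) had the higher mean with DN-TRF2, against 48.0% of all genes, and their median difference was 0.065. The 3 lower ones were CHGB (-0.18), CHGA (-0.14) and DBH (-0.040). GAP43, a protein of growing axons, had the largest difference, 0.46 ± 0.17, with an unadjusted p of 0.0266 and a limma adjusted p of 1.00. Its groups overlapped, GFP control 3 lying at 9.85 and DN-TRF2 array 1 at 9.81. Of substrate-adherent, mesenchymal-type markers 8 of 11 were measured. Of these 6 (75%) had the higher mean with DN-TRF2, against 48.0% of all genes, and the median difference of the list was 0.25. The 2 lower ones were VIM (-0.20) and FN1 (-0.029). CAV1 and TAGLN differed by 0.056 and 0.027. TIMP1, S100A6, CAV2 and LUM differed by 0.68, 0.59, 0.48 and 0.45, and 0 of the list passed the adjusted test. Relative to all genes that list lay at -0.19, -0.067 and -0.12 in controls and 0.044, 0.18 and 0.16 in DN-TRF2 cells. Their part in the values above was not tested. Fewer cells of a type and less RNA per cell cannot be told apart in such bulk samples.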

How the data were processed

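RNA of 6 cultures was measured on 1-channel cDNA arrays of 9600 spots. The authors deposited linear intensity values per spot; per the labels' protocols roughly 5 µg RNA went into each 33P labelling. No source used here names the image software, background treatment or scaling. Of 9600 positions, 384 were blank and 47 more held the stand-in value of 10 throughout, so 9169 were kept. Spots were named through the platform annotation by gene ID (RefSeq, GRCh38.p14). An offset of 50, which understates changes of dim spots, was added, log2 taken and arrays quantile-normalized. Spots of a gene were averaged and 6255 genes tested with limma 3.58.1 (R 4.3.3; lmFit, eBayes, two-sided, Benjamini-Hochberg over all genes); spots were fitted likewise. The fit was tested on simulated data with changes larger than that of any member, so this says nothing of smaller changes. The 3 arrays per group limit the precision.

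The named genes are all members, with array values for up to 3 of smallest p per class, for immunoproteasome genes and their counterparts, and for genes with at least 3 spots. PSMD5, PSMD9 and PSMD10 were classed as chaperones. Members, lists and motifs were chosen with earlier results of these data known. Replicate numbers were taken to pair the samples where values are compared by number: deviations of same-numbered arrays correlated at 0.390, 0.296 and 0.246. The main fit compared the groups only and left these numbers out. Its SEs, intervals and p-values are therefore unpaired. In the main fit 223 of all genes had an unadjusted limma p under 0.05, against 332 in the alternative fit with the replicate block. The labels name separate experiments but do not tie the numbers to them. A spot's value is that of the clone so annotated.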

Additional observations from a re-analysis of the deposited data

How the results depend on the processing

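In the 18 alternatives run, 0 of the proteasome genes passed limma's adjusted p, the smallest being 0.521 (without GFP control 2). The fit per gene called 0 genes throughout, and the fit per spot called 0 except with an offset of 1, where 1 spot passed (0 of them a proteasome spot). The sign of the difference held in every alternative that measured the gene for 10 of 35 genes: PSMA3, PSMA7, PSMB2, PSMB3, PSMC4, PSMC6, PSMD6, PSMD10, PSME3 and PSMG3. Of these, PSMB3, PSMD6 and PSMG3 were not measured without spots below the median signal, and PSMA3, PSMB2 and PSMC6 neither there nor without the quartile of dimmest spots. The count of 19 higher genes became 14 with median scaling (42.6% of all genes higher, against 48.0%), 25 with array weights, and 12 of 20 without spots below the median signal. Median scaling also moved the median of the 35 genes to -0.035, of non-ATPase genes to -0.0054, of activators to -0.073 and of assembly chaperones to -0.010. The core alpha median was -0.037 without spots below the median signal and without the dimmest quartile, and 0.016 with array weights. The chaperone median was 0.022 when each gene was represented by its brightest spot.

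With 1 array left out the count of higher genes ran from 14 to 22 and the median of all 35 from -0.042 to 0.034. Class medians ran from -0.21 to -0.016 for core alpha, -0.011 to 0.059 for core beta, -0.17 to -0.027 for ATPase, -0.032 to 0.051 for non-ATPase, -0.029 to 0.084 for activator and 0.013 to 0.076 for chaperone genes. With the replicate block the differences are the same, 0 genes passed, and 3 members had an unadjusted p under 0.05, as without it. No alternative changed a call at an adjusted p of 0.05 for a proteasome gene, but the count of 3 at an unadjusted p became 1 with median scaling and with array weights, 2 with the brightest spot per gene, and 0 to 3 with 1 array left out. It was 0 of 20 without spots below the median signal and 0 of 30 without the dimmest quartile, where PSMC6, PSMA3 and PSMB2 were not measured. A pair was added after seeing the data: leaving out spots at or under 10 on any array, and classes by symbol prefix, with which the non-ATPase median was 0.031 and the chaperone median 0.089. The cause of these shifts was not tested. Because blanks hold a stand-in value, signal over background could not be measured.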
